A study of Mus musculus with 1470 samples.

Results

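The Gimap genes encode GTPases of immunity-associated proteins, a family of GTP-binding proteins known mainly from lymphocytes. The 8 members measured here, Gimap1, Gimap3, Gimap4, Gimap5, Gimap6, Gimap7, Gimap8 and Gimap9, were taken by gene symbol and make up 8 of the 14915 gene rows of the expression table. GIMAP proteins share a GTPase domain of the AIG1 type, and many of them sit on intracellular membranes. Loss of Gimap5 in rats and mice is known to deplete peripheral T cells, and loss of Gimap1 in mice to deplete mature lymphocytes, so the family is usually described as supporting lymphocyte survival. Members are also known from vascular endothelium.

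The data were full-length Smart-seq2 profiles of 1470 single non-parenchymal cells (NPCs), the immune, endothelial and other non-hepatocyte cells of the liver, taken from mice fed normal chow (ND) or a high-fat diet (HFD). All mice were wild-type C57BL/6J males obtained at 4 weeks of age. The 3 HFD mice ate a diet with 60% of its calories as fat for 9 weeks from 5 weeks of age, and the 3 ND mice ate chow. Livers were digested with collagenase in the living, anesthetized animal and viable cells were sorted singly into plates, so lymphocytes of the liver tissue and of the blood left in it were not told apart. The mouse was the replicate throughout: cell values were averaged within a mouse before any test.

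Median exon reads per cell ranged from 88345 in HFD mouse 2 to 200160 in HFD mouse 1, and the median number of genes detected at an RPKM (reads scaled to transcript length and to the mapped reads of the cell) of at least 1 ranged from 1596 in HFD mouse 2 to 3163 in HFD mouse 3. HFD mouse 2 stood apart by its low gene number in each of the 5 classes below (1428 to 1774 genes, against 2167 to 3452 in the other mice with at least 3 cells of the class). Diet counts of members are given with and without it. Depth was recovered from the RPKM values, 87.7% of which at low levels lay within 0.05 of a whole number of reads (12.3% after gene lengths were shuffled).

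Cells were grouped without using the Gimap genes, and clusters were named from marker genes as T-cell-like (21.3% of the cells), natural killer (NK)-like (2.93%, 43 cells), B-cell-like (16.8%), endothelial-like (31.7%) and myeloid-like (18.8%, most of them Kupffer-like). The T markers Cd3d, Cd3e, Cd3g, Cd5, Cd28 and Lat summed to a median log2(RPKM + 1) of 40.6 in T-cell-like cells against 9.16 in NK-like, 7.94 in B-cell-like, 7.53 in endothelial-like and 7.57 in myeloid-like cells. Sums of this size outside the T cells were also present in hepatocyte-like cells (6.6) and erythrocyte-like cells (10), which should lack T-cell receptor genes. Low RPKM of a lymphocyte gene was therefore read against these 2 classes, which hold 41 and 33 cells. The least secure class was NK-like: only 5 mice had at least 3 such cells, with 3 cells in HFD mouse 3 and 5 cells in ND mouse 3.

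The members lie side by side on mouse chromosome 6, from base 48647186 to base 48770851 of GRCm38, a stretch of 123.7 kb in the RefSeq annotation. Their order along the plus strand is Gimap8, Gimap9, Gimap4, Gimap6, Gimap7, Gimap1, Gimap5 and Gimap3, and Gimap6 and Gimap3 are transcribed from the minus strand. Gimap3 and Gimap5 share 190 stretches of 50 bases, the read length, which is 7.52% of those in Gimap3 and 4.53% of those in Gimap5. Reads from these stretches could not be placed uniquely. No other pair of members shared such a stretch. The antisense gene Gimap1os overlaps Gimap1, and the libraries did not keep strand, so reads of the 2 genes cannot be told apart there.

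Promoters of 4 members are shown because they held the largest parts of the family's summed level in T-cell-like cells (Gimap4 and Gimap3) and in B-cell-like cells (Gimap6 and Gimap1), given below. Each RefSeq window runs 5′ to 3′ along the gene, from 250 bases before its start to 50 bases after it, in lower case. Capitals mark AGGAAG or its reverse complement CTTCCT, an extended form of the GGAA core recognized by ETS factors such as Ets1, and TGTGGT or its reverse complement ACCACA, recognized by RUNX factors.
Gimap1 promoter, GRCm38.p6 chr6:48738797-48739096, plus strand: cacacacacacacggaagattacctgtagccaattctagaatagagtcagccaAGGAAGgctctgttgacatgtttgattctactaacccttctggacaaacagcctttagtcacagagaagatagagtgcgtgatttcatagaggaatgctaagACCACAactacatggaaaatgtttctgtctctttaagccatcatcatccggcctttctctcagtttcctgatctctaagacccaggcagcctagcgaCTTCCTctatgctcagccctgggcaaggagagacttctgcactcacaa
Gimap3 promoter, GRCm38.p6 chr6:48770802-48771101, minus strand: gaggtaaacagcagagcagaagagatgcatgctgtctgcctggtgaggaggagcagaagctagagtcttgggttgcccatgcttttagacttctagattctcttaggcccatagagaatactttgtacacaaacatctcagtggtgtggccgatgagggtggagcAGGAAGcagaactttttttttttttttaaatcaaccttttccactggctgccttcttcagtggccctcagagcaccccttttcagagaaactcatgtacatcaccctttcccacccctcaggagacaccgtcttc
Gimap4 promoter, GRCm38.p6 chr6:48684328-48684627, plus strand: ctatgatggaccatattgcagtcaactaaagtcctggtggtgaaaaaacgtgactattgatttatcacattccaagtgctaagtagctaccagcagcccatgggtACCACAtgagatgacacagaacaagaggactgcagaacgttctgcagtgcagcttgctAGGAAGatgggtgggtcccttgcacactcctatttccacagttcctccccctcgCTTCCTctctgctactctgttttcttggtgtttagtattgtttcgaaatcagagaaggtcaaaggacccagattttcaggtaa
Gimap6 promoter, GRCm38.p6 chr6:48708195-48708494, minus strand: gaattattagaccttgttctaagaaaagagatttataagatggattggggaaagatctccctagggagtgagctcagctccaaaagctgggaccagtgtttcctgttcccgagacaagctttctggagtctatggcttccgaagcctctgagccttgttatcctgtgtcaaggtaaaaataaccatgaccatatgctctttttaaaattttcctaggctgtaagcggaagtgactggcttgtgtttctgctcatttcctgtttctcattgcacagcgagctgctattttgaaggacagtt

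The ETS letters were present in the window of 6 of the 8 members and in 35.1% of all 27025 RefSeq promoter windows, counting the first window listed for Gimap8. Another window of Gimap8, not counted here, held CTTCCT at position -48 from its start. The RUNX letters were present in Gimap1, Gimap4 and Gimap7, and in 16.9% of all windows. Gimap4 has both kinds of these letters and Gimap6 has neither, although shorter or other forms were not searched. A match is a run of letters only and no binding was measured.

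As a family, the Gimap genes were highest in T-cell-like cells and stepped down through NK-like, B-cell-like and endothelial-like cells to a low level in myeloid-like cells. The mean RPKM of the 8 members summed to 3937, 5046 and 5085 in the T-cell-like cells of ND mice 1 to 3 and to 4570.1, 4444 and 4754 in those of HFD mice 1 to 3, or 4639 ± 428 (SD, n = 6 mice). NK-like cells reached 3174 ± 680 (SD, n = 5 mice), of which ND mouse 3 at 4379 lay within the T-cell range and the other mice lay between 2771 and 2966, within the range of B-cell-like cells. In B-cell-like cells the sum was 2082 ± 472, from 1716 to 2993, and in endothelial-like cells 1118 ± 120, from 984 to 1279 (SD, n = 6 mice each). The T-cell, B-cell and endothelial ranges did not overlap. In myeloid-like cells the sum was 91.5 ± 44.1 (SD, n = 6 mice), from 42 to 153, which overlapped the 51.6 to 144.3 of hepatocyte-like cells and the 59.6 to 191.9 of erythrocyte-like cells.

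**Figure D1:**
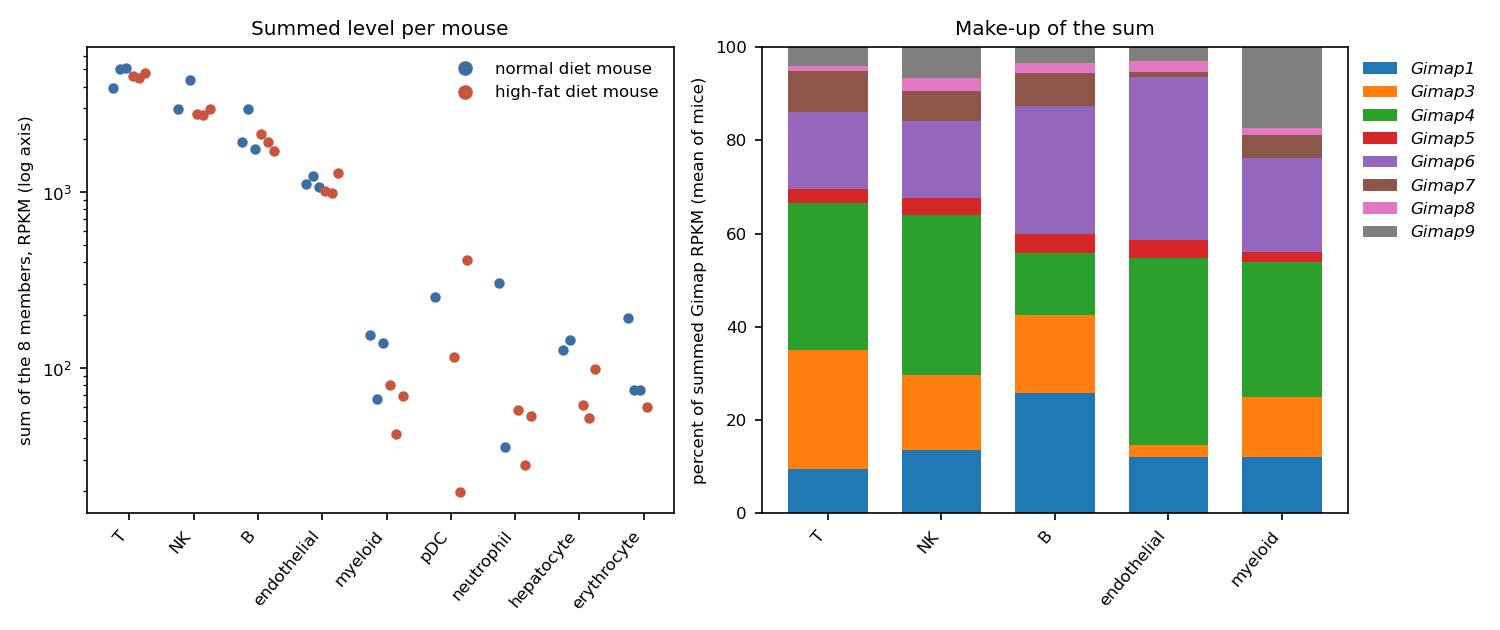
Left, the RPKM of the 8 members, averaged over the cells of a class in a mouse and summed, on a log axis, with 1 point per mouse and diet in color. Right, the share of each member in that sum, in percent and averaged over mice, as stacked bars for 5 classes. The T-cell sums lie between 3937 and 5085 and the myeloid sums between 42 and 153, and the endothelial bar is mostly Gimap4 and Gimap6.

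The make-up of this sum differed between classes. RPKM is scaled to transcript length, so members can be set side by side, although the length behind Gimap4 and Gimap8 could not be recovered as exactly as for the others (83% and 80.5% of low values within 0.1 of whole reads, against 100% for each of the others). In T-cell-like cells Gimap4 held 31.5% ± 2.63, Gimap3 25.4% ± 3.35 and Gimap6 16.5% ± 1.37 of the family RPKM (SD, n = 6 mice). B-cell-like cells were led by Gimap6 at 27.5% ± 5.22 and Gimap1 at 25.9% ± 5.46, with Gimap4 at 13.4% ± 3.05. Endothelial-like cells were led by Gimap4 at 40.1% ± 5.86 and Gimap6 at 35% ± 8.17, while Gimap3 held 2.57% ± 2.71 and Gimap7 0.979% ± 1.47. Thus the share of Gimap3 lay between 21.8% and 30.5% in the T-cell-like cells of the 6 mice and between 0.621% and 7.81% in their endothelial-like cells.

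Gimap3 and Gimap7 had their highest means in T-cell-like cells and lower means in endothelial-like than in B-cell-like cells. Gimap3, which has been linked to proteins of the Bcl2 family and to T-cell survival, had a mean log2(RPKM + 1) in T-cell-like cells of 9.64, 9.34 and 9.99 in ND mice 1 to 3 and of 10, 8.61 and 8.94 in HFD mice 1 to 3. The mean was 9.42 ± 0.57 in T-cell-like, 7.23 ± 1.43 in NK-like, 5.96 ± 0.93 in B-cell-like, 3.08 ± 1.01 in endothelial-like and 2.58 ± 0.66 in myeloid-like cells (SD over mice). Its lowest T-cell value, 8.61, was above every B-cell value, the highest of which was 7.10. At an RPKM of at least 100, Gimap3 was detected in 91.1% of T-cell-like, 72.1% of NK-like, 49% of B-cell-like, 4.29% of endothelial-like and 1.08% of myeloid-like cells.

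Gimap7, a small member with a single GTPase domain, followed the same order at lower levels. Its T-cell-like values were 6.02, 5.53 and 5.86 in ND mice 1 to 3 and 5.90, 4.48 and 4.88 in HFD mice 1 to 3. The means were 5.45 ± 0.63 in T-cell-like, 3.12 ± 0.92 in B-cell-like, 1.22 ± 0.71 in endothelial-like and 1.05 ± 0.27 in myeloid-like cells, next to 1.12 ± 0.80 in hepatocyte-like cells (SD over 6 mice, 5 for hepatocyte-like). NK-like cells had 2.77 in ND mouse 1, 8.98 in ND mouse 3 and 3.28, 2.62 and 2.36 in HFD mice 1 to 3, so their mean of 4.0 ± 2.8 rested on the 5 cells of ND mouse 3.

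**Figure D2:**
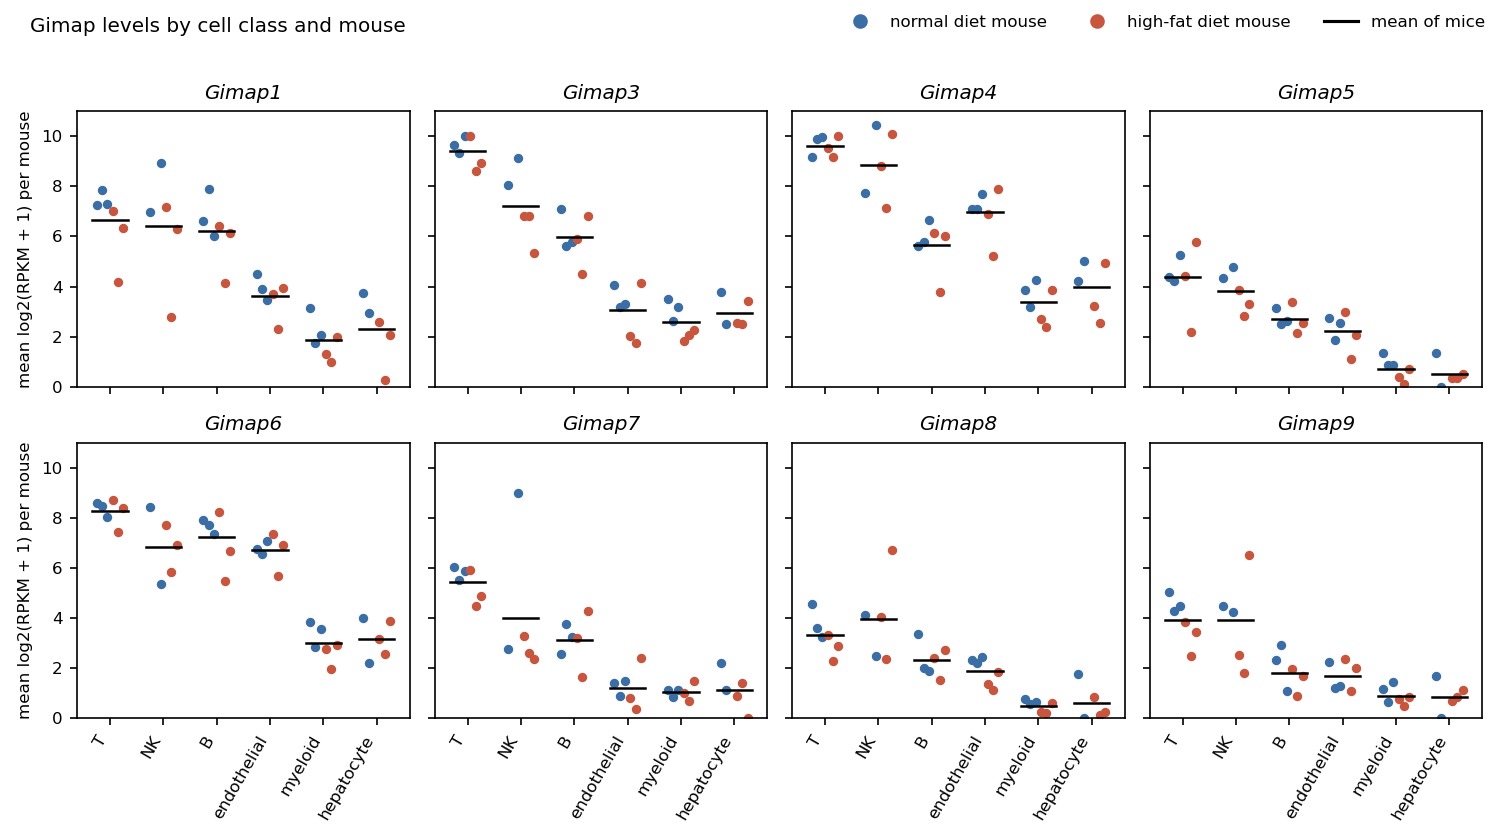
Mean log2(RPKM + 1) of each member (panels) by cell class, with 1 point per mouse, blue for ND and red for HFD, and a bar at the mean of mice; hepatocyte-like cells are drawn as a class that should lack lymphocyte transcripts. Gimap3 falls from 9.42 in T-cell-like to 3.08 in endothelial-like cells, whereas Gimap4 falls from 9.63 to 6.97 and Gimap6 from 8.27 to 6.72.

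Gimap4 and Gimap6 had the highest levels of the 8 members in endothelial-like cells, with means of 6.97 and 6.72 against 3.64 or less for the others. Gimap4, which has been linked to T-cell death, had T-cell-like values between 9.16 and 9.99. In endothelial-like cells it had 7.09, 7.08 and 7.69 in ND mice 1 to 3 and 6.88, 5.21 and 7.88 in HFD mice 1 to 3, and in B-cell-like cells 5.61, 5.76 and 6.64 and 6.13, 3.78 and 6.03 in the same order. HFD mouse 2 was the lowest in both classes, and within each mouse the endothelial value was the higher. At an RPKM of at least 100, Gimap4 was detected in 87.9% of T-cell-like, 57.7% of endothelial-like, 37.7% of B-cell-like and 3.61% of myeloid-like cells, against 4.88% of hepatocyte-like cells.

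Gimap6, whose protein binds the autophagy protein GABARAPL2, had its T-cell, B-cell, NK and endothelial means within a narrower range than Gimap3, Gimap4 or Gimap1 did. Its mean was 8.27 ± 0.48 in T-cell-like, 7.22 ± 1.01 in B-cell-like, 6.85 ± 1.27 in NK-like, 6.72 ± 0.59 in endothelial-like and 2.99 ± 0.67 in myeloid-like cells (SD over mice). The endothelial-like values were 6.74, 6.57 and 7.08 in ND mice 1 to 3 and 7.35, 5.66 and 6.93 in HFD mice 1 to 3, all above the highest myeloid-like value of 3.86.

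Gimap1 had close means in T-cell-like, NK-like and B-cell-like cells and a lower mean in endothelial-like cells. There, 22.5% of cells still had Gimap1 at an RPKM of at least 100. It had a mean of 6.65 ± 1.31 in T-cell-like, 6.43 ± 2.25 in NK-like and 6.20 ± 1.21 in B-cell-like cells, and of 3.64 ± 0.75 in endothelial-like and 1.87 ± 0.75 in myeloid-like cells (SD over mice). The T-cell-like values of 7.27, 7.85 and 7.28 in ND mice and 7.02, 4.18 and 6.32 in HFD mice overlapped the B-cell-like range of 4.15 to 7.89. HFD mouse 2 was the lowest in both.

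Gimap5, Gimap8 and Gimap9 had the lowest means of the 8 members in T-cell-like cells. In T-cell-like cells Gimap5, the member whose loss causes T-cell lymphopenia, had a mean of 4.37 ± 1.22, Gimap9 of 3.94 ± 0.90 and Gimap8 of 3.32 ± 0.76, and in endothelial-like cells the means were 2.22 ± 0.68, 1.70 ± 0.57 and 1.89 ± 0.53 (SD, n = 6 mice). The mean of Gimap8 in NK-like cells was 3.95 ± 1.75, raised by a value of 6.70 in the 3 cells of HFD mouse 3. At an RPKM of at least 100, 32.6% of T-cell-like cells had Gimap5, 37.1% had Gimap9 and 20.8% had Gimap8.

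Class means were compared in limma with the mouse as a block, which takes out the level that a mouse has across its classes. The steps were thus set against the remaining spread of class means within mice. That spread was pooled over all classes of the fit, so NK-like means from few cells also entered comparisons of the other classes. The p-values were adjusted over all 6369 genes tested. A gene was called at an adjusted p of at most 0.05, and all 8 members passed the filter on low values. Differences in mean log2(RPKM + 1) understate the change of low genes, and they do not separate more cells with a transcript from more transcript per cell. T-cell-like cells exceeded myeloid-like cells in 8 of 8 members, where 25.2% of all genes were called higher in T-cell-like cells, by 2.82 (Gimap8) to 6.84 (Gimap3) on the log2 scale, with limma adjusted p from 7.72e-15 (Gimap4) to 4.04e-06 (Gimap9). They exceeded endothelial-like cells in 8 of 8 members as well (background 21.6%), by 1.43 in Gimap8 to 6.34 in Gimap3. All 16 of these differences had the same sign in 6 of 6 mice.

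Against B-cell-like cells, 6 members were higher in T-cell-like cells (background 14.8%), namely Gimap4 by 3.97 ± 0.29 (SE), Gimap3 by 3.46 ± 0.41, Gimap7 by 2.33 ± 0.63, Gimap9 by 2.13 ± 0.44, Gimap5 by 1.64 ± 0.31 and Gimap6 by 1.05 ± 0.32. Gimap8 was higher by 1.0 ± 0.40 in 6 of 6 mice (limma adjusted p = 0.0849; called with classes from marker sums, 10 principal components, unregressed clusters, at least 5 cells per mouse or without HFD mouse 3) and Gimap1 by 0.45 ± 0.44 in 5 of 6 mice (limma adjusted p = 0.551). When RPKM was averaged over cells before the logarithm was taken, only Gimap3 and Gimap4 were called here. The call of Gimap6 was also lost without the mouse block, without HFD mouse 2 (0.87), without HFD mouse 3 (0.91), with a pseudocount of 0.1 and with unregressed clusters (limma adjusted p = 0.151, 0.111, 0.0766, 0.054 and 0.05). The last of these lay just above 0.05 before rounding. The call of Gimap7 was lost without ND mouse 1 (2.10, limma adjusted p = 0.0503).

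NK-like cells exceeded myeloid-like cells in 8 members (background 19.7%) and endothelial-like cells in 7 (background 18%), all but Gimap6, which differed by 0.15 ± 0.33 (limma adjusted p = 0.760). They exceeded B-cell-like cells in 5 members, Gimap4, Gimap9, Gimap8, Gimap3 and Gimap5 (background 14%), with Gimap3 higher in 4 of 5 mice and the others in 5 of 5. This count was 2 with RPKM averaged first, and 3 with classes from marker sums, without the mouse block or without ND mouse 1 or ND mouse 3. The call of Gimap3 was lost in each of these, with a pseudocount of 0.1, without the filter on low values and when ND mouse 2, HFD mouse 1 or HFD mouse 2 was left out. Between T-cell-like and NK-like cells 2 members were called, both higher in T-cell-like cells (background 12%): Gimap3 by 2.21 ± 0.43 (SE, limma adjusted p = 0.000824) and Gimap6 by 1.40 ± 0.33 (limma adjusted p = 0.00465), each in 5 of 5 mice. This pair of calls depended on the processing. With RPKM averaged first the differences were 1.29 and 0.73 (limma adjusted p = 0.0657 and 0.13), and without the mouse block Gimap6 was not called (limma adjusted p = 0.0628). Other clusterings changed the class itself, from 2.93% of all cells to 7.35% with 10 principal components in place of 20 and 7.01% without regression on gene number, where 77.7% of it came from HFD mouse 2, and neither larger class had an NK marker among its 10 leading genes. With 10 principal components, the Gimap3 difference was -0.04 and no member was called. Without regression, neither was called (0.23 and 0.58), and Gimap1 and Gimap8 were called in their place. Without ND mouse 3, with its 5 NK-like cells, Gimap7 (2.58 in place of 1.43, limma adjusted p = 8.96e-05) and Gimap4 (1.06, limma adjusted p = 0.041) were called as well, and Gimap4 also with at least 5 cells per mouse (limma adjusted p = 0.0473).

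The order of the classes was thus not resolved at every step. T-cell-like and NK-like cells stood next to each other at the top for 7 of the 8 members, and their levels were called different for Gimap3 only among these 7, and for Gimap4 and Gimap7 as well without ND mouse 3. Gimap6 had B-cell-like cells in the second place, and its B-cell, NK and endothelial levels were not called different from each other. For Gimap3, Gimap7 and Gimap9 the step from endothelial-like to myeloid-like cells was not called (differences of 0.50 ± 0.41, 0.17 ± 0.63 and 0.80 ± 0.44, SE). The other 5 members were higher in endothelial-like than in myeloid-like cells (background 19%), Gimap6 by 3.73 ± 0.32 and Gimap4 by 3.58 ± 0.29. B-cell-like cells exceeded myeloid-like cells in 7 members (background 12.7%), all but Gimap9.

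B-cell-like and endothelial-like cells differed in opposite directions for different members. Of 4 members called, Gimap3 was higher in B-cell-like cells by 2.87 ± 0.41 (SE), Gimap1 by 2.56 ± 0.44 and Gimap7 by 1.90 ± 0.63 (background 11.7%), and Gimap4 was lower in them, at a B-minus-endothelial difference of -1.31 ± 0.29 (SE, limma adjusted p = 0.000721, background 22.2%). Each of the 4 differences, and that of Gimap5, which was not called, had its sign in 6 of 6 mice, which gives the smallest p an exact sign-flip test over 6 mice allows, 0.0312, two-sided. Gimap5, Gimap6, Gimap8 and Gimap9 differed by 0.50, 0.50, 0.43 and 0.12 and were not called.

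The call of Gimap7 was lost without ND mouse 2 (limma adjusted p = 0.0873), without HFD mouse 1 (0.0762) and without the filter on low values (0.0546). Without the mouse block the Gimap4 difference was no longer called (limma adjusted p = 0.0557), and with RPKM averaged first it was -0.72 (limma adjusted p = 0.121), where Gimap5 was called (1.0, limma adjusted p = 0.046).

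**Figure D3:**
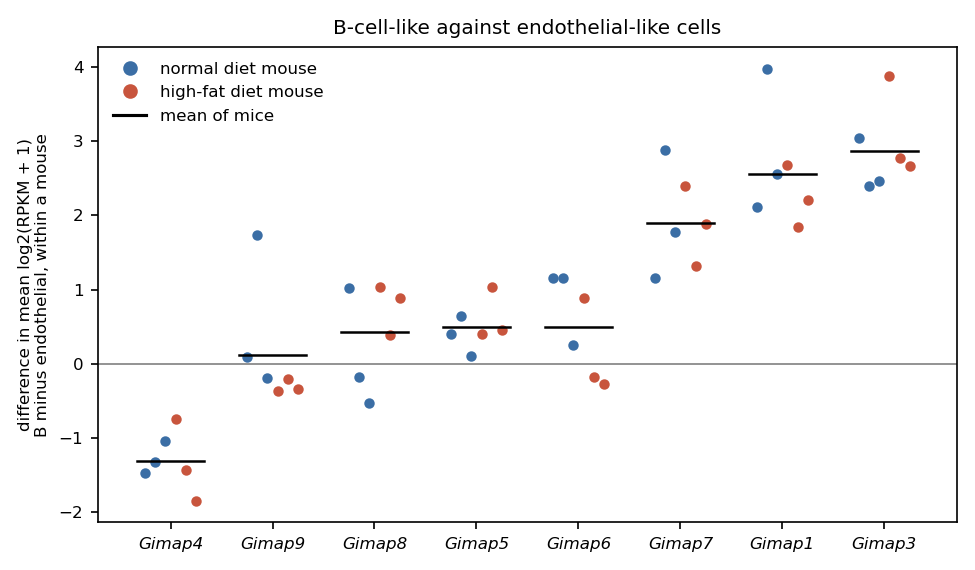
Difference in mean log2(RPKM + 1) between B-cell-like and endothelial-like cells of the same mouse, for each member, ordered by the mean difference (black bar), with 1 point per mouse. All 6 points of Gimap4 lie below 0, from -1.85 to -0.75, and all 6 of Gimap3, Gimap1, Gimap7 and Gimap5 lie above it.

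Endothelial-like cells came in 2 clusters, 1 of 35.8% of the class with a median of 59532 exon reads per cell and 1 of 64.2% with 171684. These are given as a description, since the clusters were drawn from the same cells. Gimap4 was close in both, 6.67 ± 1.23 in the shallower and 7.19 ± 1.16 in the deeper cluster (SD, n = 6 mice). Gimap6 was 5.57 ± 1.66 in the shallower and 7.34 ± 0.88 in the deeper cluster, and Gimap3 3.95 ± 0.81 and 2.21 ± 0.86. The sum of T markers was 13 in the shallower cluster and 4.74 in the deeper one. The part of depth or of transcripts from other cells in this was not tested.

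Myeloid-like cells carried Gimap reads at about the level of hepatocyte-like and erythrocyte-like cells. At least 1 member reached an RPKM of 1 in all but 3 of the myeloid-like cells, with a median of 4 members per cell, and the median was also 4 in hepatocyte-like and 5 in erythrocyte-like cells, against 7 in T-cell-like cells. After thinning each cell to 50000 exon reads, Gimap3 was expected in 47.3% of myeloid-like, 56.7% of hepatocyte-like, 49.1% of endothelial-like and 97.3% of T-cell-like cells (77.3%, 80.5%, 79% and 98.4% before thinning). The thinned share of Gimap4 was 74% in myeloid-like, 71.3% in hepatocyte-like and 91.1% in endothelial-like cells. The thinned share of Gimap3 in myeloid-like and endothelial-like cells was thus below that in hepatocyte-like cells. At an RPKM of at least 100, however, Gimap3 was present in 12% of the shallower endothelial cluster, in 0.0% of the deeper one and in 0 of 74 hepatocyte-like and erythrocyte-like cells, which allows a share of up to 4.05%. For Gimap4 the myeloid-like share was close to the hepatocyte-like share and the mean level was lower, 3.39 ± 0.74 against 3.98 ± 1.08 (SD, n = 6 and 5 mice). Myeloid-like cells with 4 or more members had a median of 2734 genes and a T-marker sum of 9.56, and those with 1 to 3 members had 1984 genes and 4.5. The part of depth and of T-cell transcripts in these counts was not tested.

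T-cell-like cells came in 2 clusters, which are given as a description since they were drawn from the same cells. The smaller, of 62 cells, had Tcf7, Lef1, S1pr1 and Ccr7 among its leading genes, which encode transcription factors and receptors of naive and recirculating T cells. The larger (80.2% of T-cell-like cells) had Nkg7, Il2rb, Cxcr6 and Ccl5, genes of cytotoxic and tissue-homing lymphocytes. Gimap7 had 2.55, 2.11 and 1.94 in the smaller cluster in ND mice 1 to 3 and 0.63, 1.2 and 1.29 in HFD mice 1 to 3, against 7.03, 6.59, 6.27, 6.96, 5.43 and 6.16 in the larger cluster in the same order of mice. Every mouse was thus lower in the smaller cluster. Gimap4 had 6.81, 8.10, 8.37, 7.47, 6.58 and 8.41 against 9.84, 10.46, 10.15, 9.96, 9.92 and 10.56, again lower in every mouse. The means were 1.62 ± 0.70 against 6.41 ± 0.59 for Gimap7 and 7.62 ± 0.80 against 10.15 ± 0.30 for Gimap4 (SD, n = 6 mice). Gimap3 was 8.20 ± 1.17 against 9.76 ± 0.38 and Gimap1 6.09 ± 1.58 against 6.80 ± 1.27. Gimap5 was 2.81 ± 1.22 against 4.75 ± 1.22 and Gimap6 7.34 ± 0.82 against 8.57 ± 0.62. Gimap8 was 2.83 ± 1.40 against 3.52 ± 0.75 and Gimap9 2.84 ± 1.67 against 4.24 ± 0.78. The ranges of these members overlapped between the clusters, and how many of all genes separate the clusters was not counted. The T-marker sums were close, with medians of 38.5 and 40.8, and the median number of genes was 2248 in the smaller and 2621 in the larger cluster. The part of gene number in these values was not tested.

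T-cell-like cells with Cd8b1 but not Cd4 at an RPKM of at least 1 (51 cells) were compared with those that had Cd4 but not Cd8b1 (33.9% of the class), as the genes of the CD8 and CD4 co-receptors. They did not differ in a called member (background 0.0196% of 5097 genes, 7.08% at an unadjusted p under 0.05). Gimap5 was nearest, 1.46 ± 0.63 (SE) higher with Cd8b1 (limma adjusted p = 0.690), and 0.73 higher without HFD mouse 3, which supplied 4 and 3 of these cells.

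Between diets, 0 of the members were called in each of the 5 classes by limma, where 0 of all genes were called (background 0.0% of 3556 to 4344 genes tested per class). Of the members, 2 in T-cell-like, 2 in NK-like and 1 in myeloid-like cells had an unadjusted p under 0.05. Among all genes 3.82% had one in T-cell-like, 3.31% in NK-like, 2.94% in B-cell-like, 1.44% in endothelial-like and 4.11% in myeloid-like cells. An exact permutation test of 3 against 3 mice cannot go below p = 0.1. In T-cell-like cells the 8 members were all lower in HFD mice, with a median difference of -0.60, where the median of all genes was -0.30 and 77.5% of genes were lower. B-cell-like cells had the same pattern, 8 of 8 members lower with a median difference of -0.51, against -0.28 and 74.6% for all genes. Endothelial-like cells, whose 2 clusters were mixed in different parts in each mouse, had 7 of 8 lower with a median of -0.48, against -0.10 and 61.3% for all genes. These counts rested on HFD mouse 2. Without it 5 of 8 members were lower in T-cell-like, 3 of 8 in B-cell-like and 3 of 8 in endothelial-like cells, with median differences of -0.30, 0.11 and 0.12, and the medians of all genes were 0.02, 0.01 and 0.20. In NK-like cells 7 of 8 members were lower with it, where 57.6% of all genes were, and 4 of 8 without it, with medians of -0.99 and -0.41 against -0.19 and 0.15 for all genes. In myeloid-like cells 4 of the 5 members tested were lower in either case, where 74.4% of all genes were lower with it, and the medians were -0.88 with it and -0.59 without it, against -0.25 and 0.01 for all genes.

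The largest T-cell differences were those of Gimap1 and Gimap9. Gimap1 had 7.27, 7.85 and 7.28 in ND mice and 7.02, 4.18 and 6.32 in HFD mice, a difference of -1.63 ± 0.61 (SE, limma p = 0.0144, adjusted p = 0.999) with an exact permutation p of 0.1. Gimap9 had 5.06, 4.30 and 4.49 in ND mice and 3.86, 2.48 and 3.46 in HFD mice, a difference of -1.36 ± 0.53 (SE, limma p = 0.0179, adjusted p = 0.999), also with an exact permutation p of 0.1. In both genes every ND mouse was above every HFD mouse (diets did not overlap in 7.62% of all genes in this class), and HFD mouse 2 was the lowest. Without HFD mouse 2 the differences were -0.80 and -0.96. The part of its low gene number in the diet differences was not tested.

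In the other classes the diets did not overlap for 4 values, Gimap8 in endothelial-like, Gimap3 and Gimap5 in NK-like and Gimap3 in myeloid-like cells, and none was called. Diets did not overlap in 4.35% of all genes tested in endothelial-like, 18.7% in NK-like, 10% in myeloid-like and 8.92% in B-cell-like cells, beside 1 of 8, 2 of 8, 1 of 5 and 0 of 8 members. In endothelial-like cells Gimap8 had 2.34, 2.19 and 2.43 in ND mice and 1.36, 1.14 and 1.85 in HFD mice (difference -0.87 ± 0.44 SE, exact permutation p = 0.1, limma p = 0.0664, adjusted p = 1.0), and without HFD mouse 2 the difference was -0.71. NK-like cells had Gimap3 at 8.06 and 9.12 in 2 ND mice and at 6.80, 6.80 and 5.34 in HFD mice, a difference of -2.28 ± 1.05 (SE, limma p = 0.0439, adjusted p = 0.999), and without HFD mouse 2 of -2.52. The NK-like difference of Gimap5 was -1.22 ± 1.01 (SE, limma p = 0.246). Gimap7 had the largest diet difference of any member and class, -3.12 ± 1.40 in NK-like cells (SE, -3.05 without HFD mouse 2, limma p = 0.0397, adjusted p = 0.999), which came with the value of 8.98 in the 5 cells of ND mouse 3 and overlapping diets. The next, Gimap1 in NK-like cells, was -2.51 ± 1.27 (SE, limma p = 0.0648) and -1.20 without HFD mouse 2. In myeloid-like cells 5 members passed the filter on low values, and Gimap3 had 3.51, 2.63 and 3.19 in ND mice and 1.81, 2.08 and 2.26 in HFD mice (difference -1.06 ± 0.40 SE, -1.07 without HFD mouse 2, exact permutation p = 0.1, limma p = 0.0237, adjusted p = 0.999), values in the range of those in hepatocyte-like cells (2.5 to 3.8) or below it. Gimap4 and Gimap6 in T-cell-like cells had the smallest differences there, -0.11 ± 0.52 and -0.19 ± 0.53 (SE).

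**Figure D4:**
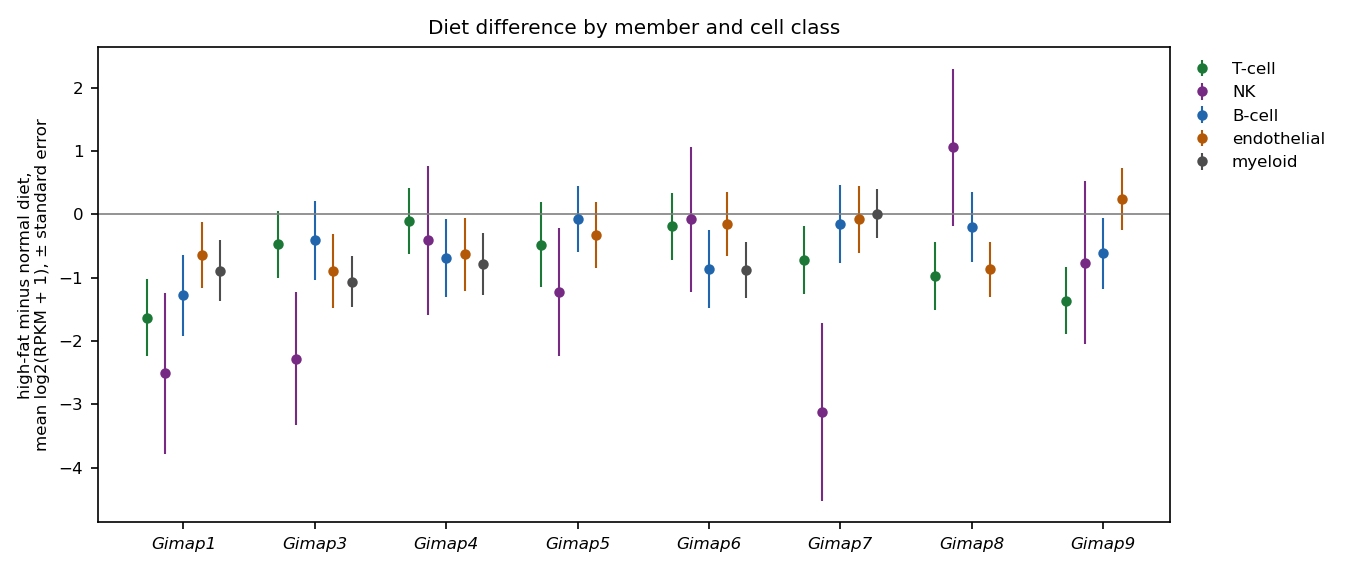
HFD minus ND difference in mean log2(RPKM + 1) for each member in 5 classes (colors), with the standard error from limma; 3 HFD and 3 ND mice, 3 and 2 for NK-like cells. With HFD mouse 2 included, most points lie below 0, as did the median of all genes in each class, and none was called after adjustment over all genes.

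Other genes around the family were counted from 3 lists. Of 15 lymphocyte survival and circulation genes, 13 were higher in T-cell-like than in myeloid-like cells and none lower (background 25.2% of all genes; median 1.46, all genes 0.28), among them Ets1, a transcription factor of lymphocytes and endothelium, by 3.83 ± 0.26 (SE) and Bcl2, an inhibitor of apoptosis, by 3.24 ± 0.37. Against B-cell-like cells the list split (11 called, 7 with RPKM averaged first), with 8 higher in T-cell-like cells (background 14.8%), such as the interleukin-7 receptor gene Il7r by 3.14 ± 0.24, and 3 lower (background 5.67%), including the chemokine receptor gene Ccr7 (-4.20 ± 0.36) and Klf2, a regulator of T-cell exit from tissue (-3.82 ± 0.34). Between endothelial-like and myeloid-like cells 4 of the 15 were higher in endothelial-like cells (background 19%; median 0.36, all genes 0.13) and none lower, namely Ets1 by 3.21 ± 0.26, S1pr1 by 2.58 ± 0.37, Klf2 by 2.14 ± 0.34 and Foxo1 by 1.34 ± 0.27.

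Of 6 genes for proteins that GIMAP proteins have been linked to, 4 were higher in T-cell-like than in B-cell-like cells and none lower (background 14.8%; 2 called with RPKM averaged first): Bcl2 by 2.14 ± 0.37 (SE), Gabarapl2 by 1.32 ± 0.35, Bcl2l1 by 1.32 ± 0.30 and Bax by 1.21 ± 0.31. B-cell-like cells were below endothelial-like cells in 2 of the 6 genes (background 22.2%), Bcl2l1 (-1.26 ± 0.30) and Bax (-1.02 ± 0.31). They were above them in none (background 11.7%). The interferon-inducible GTPases, another GTPase family of immune cells that acts against intracellular pathogens, had 7 of 12 tested genes higher in T-cell-like than in B-cell-like cells (6 called with RPKM averaged first), with Igtp first at 3.05 ± 0.28, and a median difference of 1.01 against 1.89 for the Gimap members and 0.20 for all genes. Between B-cell-like and endothelial-like cells none of the 12 was higher in B-cell-like cells and 2 were lower, Iigp1 (-1.09 ± 0.18) and Gbp7 (-0.88 ± 0.32), counts near the background of 11.7% and 22.2% of all genes in these directions.

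Over the 29 class and mouse means, the profile most like the mean of the 8 members among 1671 genes was that of Cnn2, an actin-binding calponin, with a Pearson's r of 0.944. Tmsb10 (0.911), Sept1 (0.908), Ablim1 (0.900), S100a10 (0.892), Dusp2 (0.892), Cd2 (0.886), H2-K1 (0.884), Gramd1a (0.876) and Hmha1 (0.876) followed. Cnn2, Tmsb10 and Ablim1 encode actin-binding proteins, and Cd2 is an adhesion receptor of T and NK cells. Gimap3 was most like B4galnt1, a ganglioside synthase (r = 0.961), and among members like Gimap7 (0.897). Gimap8 and Gimap9 were each other's nearest member (0.863), as were Gimap1 and Gimap5 (0.861). These means share mice and depth and are given as a description.

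Within a class the members did not rise and fall together from cell to cell to a marked degree. The mean correlation over mice of 28 pairs of members had a median of 0.116 in T-cell-like cells (0.0254 to 0.318), 0.0689 in B-cell-like, 0.0557 in endothelial-like and 0.101 in myeloid-like cells. NK-like cells, where only 1 mouse could be used, had a median of 0.0545 and a range of -0.403 to 0.473. Cells of a mouse share depth, and correlations that are weak in sparse values or from 1 mouse are no finding. All the same, 72.5% of T-cell-like cells had 6 or more members at an RPKM of at least 1, against 33.5% of endothelial-like cells, 6 of 41 hepatocyte-like cells (14.6%) and 12 of 33 erythrocyte-like cells (36.4%).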

How the data were processed

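RPKM values of 1470 single cells from 6 mice were used as deposited. The authors aligned 50-base reads to mm10 with STAR, computed RPKM from uniquely mapped reads over RefSeq genes, and removed low-quality cells and doublets (Scrublet). Each cell's mouse and diet came from its label.

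Cells were clustered without Gimap genes (1000 variable genes, gene number regressed out, 20 principal components, 15 nearest neighbours, 12 spectral clusters) and named from markers. This clustering was chosen over others for its class naming, spread over mice and marker agreement, and not for Gimap values. Mean log2(RPKM + 1) per class and mouse, from at least 3 cells, was tested with limma 3.58.1 (R 4.3.3) with the mouse as a block. Diets were tested within each class without it. The filter kept genes with a mean of at least 1 in a compared class or, for diets, over all mice of the class, and p-values were Benjamini-Hochberg adjusted over all genes tested. Single values were tested by exact two-sided permutation (scipy 1.17.1, Python 3.11.15, scikit-learn 1.9.0). T-cell-like cells were divided by Cd8b1 and Cd4 at an RPKM of at least 1, with 10 as the alternative. A gene of 1 list and a comparison that used it are not reported here.

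The members and gene lists were chosen with earlier results of these data known. Named beside the members were up to 4 called genes per list and comparison with the largest difference, the 10 genes most like the family mean by Pearson's r (among genes with a mean of at least 3 in a class), and each member's nearest gene and member. The limma step and the recovery of depth were tested on simulated data. Replicates were labelled as separate mice. The labels do not say that equal replicate numbers pair ND and HFD mice, and these were not treated as pairs.

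Recovered depth was 88345 to 200160 exon reads per cell (medians of mice), so a single read in a median cell was worth an RPKM of 1.945 (Gimap4) to 6.51 (Gimap7). The value for Gimap4 rests on a length that was recovered less exactly. Intervals and shares cover counting error only, since the reads carry no molecular identifiers.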

Additional observations from a re-analysis of the deposited data

Results flagged for a closer look

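In 3 of 40 sets of member values in a class, 1 mouse stood far from the others by Dixon's test, where chance gives about 1 in 20. Gimap7 in NK-like cells was 8.98 in ND mouse 3, which supplied 5 cells, against 2.36 to 3.28 in the other 4 mice. Gimap4 was 3.78 in the B-cell-like cells of HFD mouse 2, against 5.61 to 6.64 in the others, and 5.21 in its endothelial-like cells, against 6.88 to 7.88.

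Of all contrasts searched for each member, 1 had every ND mouse with a value in one direction and every HFD mouse in the other. This was not tested, and such a pattern of signs in few mice is expected at times among many contrasts. The T minus NK difference of Gimap8 was 0.44 and 0.75 in ND mice 1 and 3 and -0.73, -0.08 and -3.8 in HFD mice 1 to 3, so that the HFD mean less the ND mean was -2.13.

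Plasmacytoid dendritic cell (pDC)-like cells, which entered no comparison, had more cells with high RPKM of a pair of members than hepatocyte-like and erythrocyte-like cells, pooled over mice. Gimap1 reached an RPKM of 100 in 5 of 22 pDC-like cells, or 22.7% (exact Clopper-Pearson 95% interval 7.82% to 45.4%), and Gimap6 in 7 of 22, or 31.8% (13.9% to 54.9%), against 1 of 74 hepatocyte-like and erythrocyte-like cells (1.35%) for each gene. The intervals cover counting error only and leave out the spread between mice. Mean log2(RPKM + 1) of Gimap1 was 2.73 in ND mouse 1 and 2.45, 0.92 and 6.03 in HFD mice 1 to 3, against 0.27 to 3.74 in hepatocyte-like cells. Gimap6 had 6.5 and then 3.3, 0.33 and 4.21 in the same mice, against 2.22 to 4.01. By mouse, the family sums of pDC-like cells were 253.6 in ND mouse 1 and 115.4, 19.6 and 413.9 in HFD mice 1 to 3, of which those of HFD mice 1 and 2 lay within or below the ranges of hepatocyte-like and erythrocyte-like cells.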

How the results depend on the processing

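Over 20 alternatives, 1 of them chosen after seeing the data (clusters without regression on gene number), all but 10 of the counts of called members lay within 1.5 times the reported count, and of 2160 values of single members 2102 kept their side of the threshold and their called direction. Most exceptions were contrasts among T-cell-like, NK-like and B-cell-like cells. The counts include the diet and the Cd8b1 against Cd4 comparisons, where no member was called, and 0 against 0 was taken as unchanged. Among the 2102 values, 95 changed sign but were called in neither fit. Between T-cell-like and NK-like cells, members called went from 2 to 0 with RPKM averaged before the logarithm, 0 with 10 principal components and 1 without the mouse block, and ranged from 2 to 4 when single mice were left out (4 without ND mouse 3, with Gimap7 and Gimap4 added). Between NK-like and B-cell-like cells they went from 5 to 2 with RPKM averaged first, 3 with classes from marker sums and 3 without the mouse block, and ranged from 3 to 5 without single mice (3 without ND mouse 1 or ND mouse 3). Between B-cell-like and endothelial-like cells they ranged from 3 to 4 without single mice (3 without ND mouse 2 or HFD mouse 1). Between T-cell-like and B-cell-like cells they went from 6 to 2 with RPKM averaged first. The T minus NK difference turned to -0.04 for Gimap3 with 10 principal components and to 1.38 for Gimap8 with unregressed clusters, where the NK minus B difference of Gimap8 was -0.35. With those clusters the T minus NK count was again 2, but of Gimap1 and Gimap8 and not of Gimap3 and Gimap6. The cause was not tested. The diet fits with the replicate number as a block called 0 members in each class, as without it. Deviations of same-numbered ND and HFD mice correlated at 0.169, -0.00931 and 0.105 in T-cell-like cells and at 0.207, 0.0693 and 0.131 in B-cell-like cells, where each mouse correlated best with its own number, as it did not in T-cell-like cells. In no class were all pairs over 0.1, so the numbers were not taken to pair the mice. With the block, 6.77% of genes in T-cell-like and 5.74% in B-cell-like cells had an unadjusted p under 0.05, against 3.82% and 2.94% without it.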

Other observations

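Among the myeloid-like cells, the 8 members summed to a mean RPKM of 101.1 ± 48.7 in Kupffer-like cells (SD, n = 6 mice) and 39.4 ± 24.3 in the cells with monocyte, macrophage and dendritic markers (SD, n = 5 mice), and both ranges lay within or below those of hepatocyte-like and erythrocyte-like cells, apart from Kupffer-like values of 170.3 and 153.7 in ND mice 1 and 3 that were above the hepatocyte-like range and within the erythrocyte-like one. Gimap9 held 17.9% ± 12.3 of the sum in Kupffer-like cells, and single cells reached an RPKM of 1530 for Gimap9 and 2090 for Gimap1. In pDC-like cells the sum ranged from 19.6 to 414 over 4 mice, with Gimap1 at 42.6% ± 31.3 and Gimap6 at 20.8% ± 18.8 of it, while Gimap4, a leading member in T-cell-like and endothelial-like cells, held 14.4% ± 18.9 (SD). These values rest on 4 to 7 cells a mouse. Neutrophil-like cells had 28.1 to 57.2 in 4 mice and 304.8 in ND mouse 1, which supplied 3 such cells.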
